A study of Mus musculus with 12 samples.

Results

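The intracellular lipases and their regulators were examined in iBAT, the brown adipose tissue of the mouse. They comprise 7 genes chosen by name: the lipases Pnpla2, Lipe and Mgll, the related Pnpla3, the coactivator Abhd5, and the inhibitors G0s2 and Hilpda. Each symbol matched 1 row of the 61210 genes in the count table, and all 7 were among the 16737 genes with enough counts to be tested. Total RNA was sequenced from wild type C57BL/6N mice aged 20 weeks, in 12 libraries that form 4 groups of 3. The first group received control diet (NCD) and was not cooled (NCD at 22 °C), and the second received NCD and was kept at 4 °C for 24 h (NCD at 4 °C). The other groups were placed on high-fat diet (HFD) at 8 weeks of age for 12 weeks and were either not cooled (HFD at 22 °C) or kept at 4 °C for 24 h (HFD at 4 °C). All mice had eaten chow up to 8 weeks of age and none carried an engineered allele. The temperature of 22 °C is that of the count table's column names, where the labels say only room temperature in short form. Replicates 1 and 2 of every group were labelled as batch 1 and replicate 3 as batch 2, so that batch and group were not confounded. The triplicates are described as mice. The p-values of the gene tests rest on the spread between samples within all 4 groups, taken from a single fit of the 12 libraries.

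Lipolysis releases fatty acids from the triacylglycerol of lipid droplets in consecutive steps. Adipose triglyceride lipase, encoded by Pnpla2, removes the first fatty acid, hormone-sensitive lipase, encoded by Lipe, acts mainly on the resulting diacylglycerol, and monoacylglycerol lipase, encoded by Mgll, releases the last fatty acid and glycerol. The coactivator encoded by Abhd5 (CGI-58) activates adipose triglyceride lipase, while the proteins of G0s2 and Hilpda inhibit it, and in brown adipocytes noradrenaline released in the cold drives the pathway through cyclic AMP and protein kinase A, largely by phosphorylation rather than by transcript level.

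Libraries held between 15136861 and 46740702 counts. All 8 brown adipocyte markers were detected in every library, with a summed level of 5895 to 7370 CPM (counts scaled to the effective library size) in NCD at 22 °C, 19622 to 23086 in NCD at 4 °C, 8107 to 10213 in HFD at 22 °C and 15604 to 18895 in HFD at 4 °C. The 6 general adipocyte markers summed to 7869 to 9210, 10292 to 12238, 6074 to 7685 and 6433 to 8247 CPM in the same order. Each sum was led by its most abundant marker, Ucp1 at 3789 to 18810 CPM over all libraries and Fabp4 at 3990 to 9619 CPM. Fabp4 was itself called higher in the cold on NCD and lower on HFD at 4 °C. The general adipocyte markers Plin1 and Pparg were called in neither comparison. In each group 1 library stood apart in skeletal muscle transcripts: the 8 muscle markers summed to 15370 CPM in NCD at 22 °C replicate 2, 8458 in NCD at 4 °C replicate 2, 16239 in HFD at 22 °C replicate 3 and 4952 in HFD at 4 °C replicate 3, against 528 to 3217 CPM in the other libraries. The 10 immune markers summed to 74.4 to 192 CPM and the 5 hepatocyte markers to 4.32 to 47.4 CPM over all libraries. Calls of members that changed without the muscle-rich libraries are given with and without them. Other genes and gene lists are given only with all 12 libraries.

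The promoters of the 3 members whose transcripts passed the test in the cold are shown. The windows run from 250 bases before to 50 bases after the annotated start, are taken from RefSeq on GRCm38.p6 and are written 5′ to 3′ in lower case. Capitals mark the cyclic AMP response element TGACGTCA (CRE), its half-site TGACG, the E-box CACGTG and the GC box GGGCGG, each searched on both strands.
Pnpla3 promoter, chr15:84167566-84167865, + strand: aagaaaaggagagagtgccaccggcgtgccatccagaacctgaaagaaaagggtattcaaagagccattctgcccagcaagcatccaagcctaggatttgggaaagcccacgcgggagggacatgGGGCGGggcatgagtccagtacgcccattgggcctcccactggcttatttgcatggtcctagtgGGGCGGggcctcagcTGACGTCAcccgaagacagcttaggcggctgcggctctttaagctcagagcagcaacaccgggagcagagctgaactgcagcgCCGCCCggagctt
Abhd5 promoter, chr9:122351366-122351665, + strand: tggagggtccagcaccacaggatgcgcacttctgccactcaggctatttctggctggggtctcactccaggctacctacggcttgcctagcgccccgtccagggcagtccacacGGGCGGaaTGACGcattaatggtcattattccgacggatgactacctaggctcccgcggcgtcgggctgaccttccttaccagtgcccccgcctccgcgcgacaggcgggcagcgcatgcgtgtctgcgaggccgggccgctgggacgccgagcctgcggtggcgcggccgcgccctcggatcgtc
Mgll promoter, chr6:88724162-88724461, + strand: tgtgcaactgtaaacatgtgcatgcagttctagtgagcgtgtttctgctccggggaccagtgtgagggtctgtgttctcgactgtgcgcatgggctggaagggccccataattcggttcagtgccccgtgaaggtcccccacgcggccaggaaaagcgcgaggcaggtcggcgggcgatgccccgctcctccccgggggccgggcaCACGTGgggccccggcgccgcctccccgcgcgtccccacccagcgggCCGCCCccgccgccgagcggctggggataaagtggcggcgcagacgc
The full CRE stood in the window of Pnpla3 alone among the members, with its first base 46 bases before the start, and in 1.79% of the 32851 promoters of the table. Its half-site, which the full element contains, occurred in 5 members and 20.8% of promoters, and in Abhd5 began 128 bases before the start. Mgll had 2 windows, and its half-site lay in the window not printed here. An E-box lay 44 bases before the start of Mgll and 155 bases before that of Lipe, and 7.15% of all promoters held one. The GC box occurred in all 7 members and 35.7% of promoters. Such matches are descriptions of letters and not of bound factors, and no binding was measured here.

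Across the 4 groups Pnpla3 varied most. It was the only member that passed the test of any difference between the 4 groups at an adjusted p under 0.001 (adjusted p = 0.000903, edgeR's quasi-likelihood F-test, Benjamini-Hochberg method), which 2.55% of all tested genes passed. Of the 12 fits that left out 1 library, only that without NCD at 4 °C replicate 2 kept this call. Over all tested genes these 12 fits passed 106 to 255 genes in the 4-group test, against 427 with all libraries. In that edgeR test the adjusted p was 0.00399 for Abhd5, 0.0270 for Pnpla2, 0.0294 for Mgll, 0.0505 for Lipe, 0.262 for Hilpda and 0.622 for G0s2. In the cold, Abhd5 was higher on both diets, Mgll was higher on NCD and Pnpla3 was lower on HFD. In the comparison of diets, Pnpla2, Pnpla3 and Mgll were lower on HFD at 4 °C, and no member passed at 22 °C. G0s2 and Hilpda passed in no comparison. In the 4 comparisons of 2 groups a gene was called when its adjusted p was under 0.05 and its log2 fold change was over 0.5 in size.

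**Figure D1:**
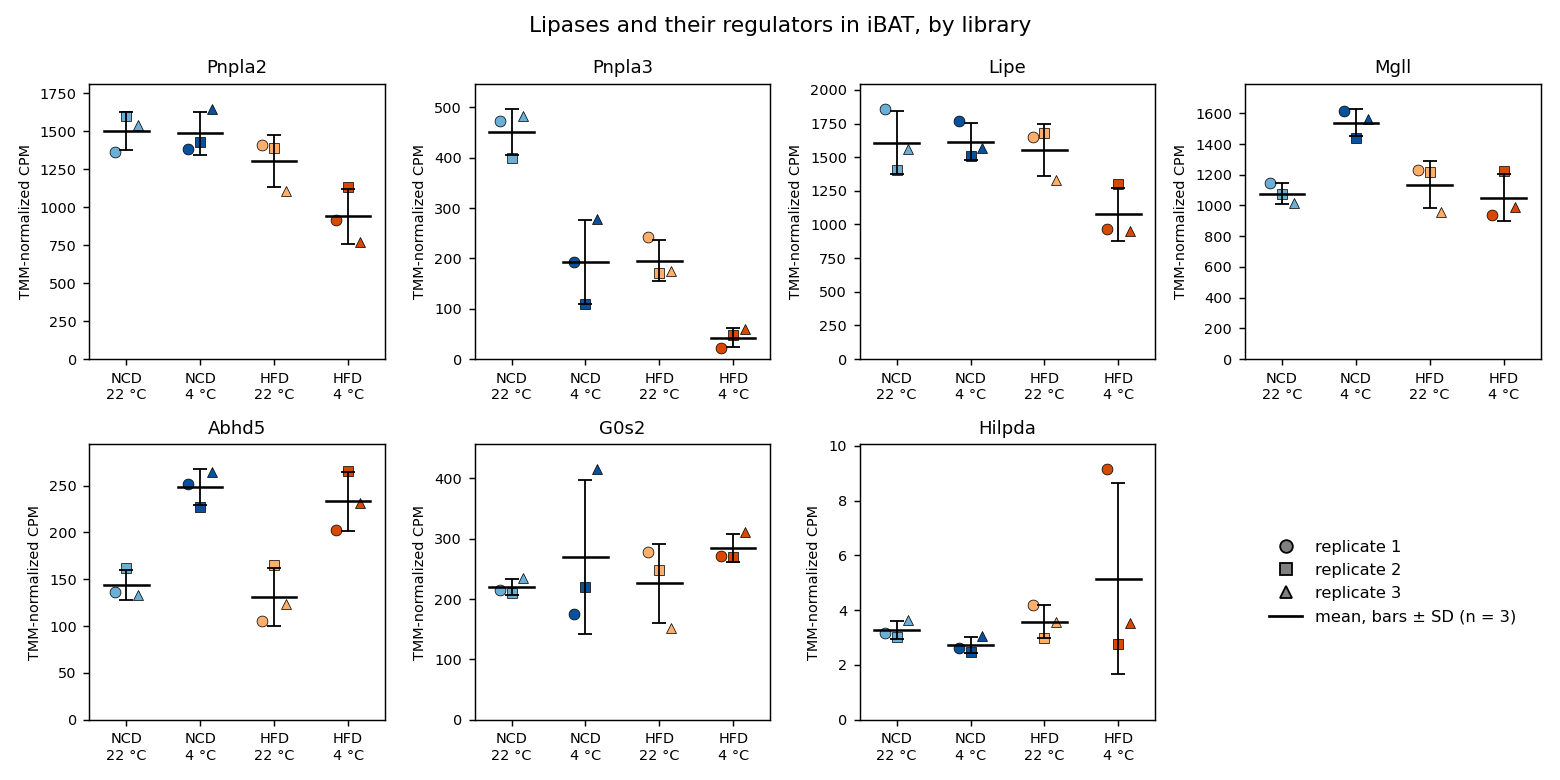
Level of each of the 7 members in the 12 libraries, as TMM-normalized CPM on linear axes that start at 0. Symbols are replicates, horizontal lines are group means and bars are ± SD (n = 3); Pnpla3 is lowest in HFD at 4 °C, Abhd5 is higher at 4 °C on both diets, and 1 library of HFD at 4 °C lies far above all others in Hilpda.

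Pnpla2 (ENSMUSG00000025509.15, GRCm38 chr7:141455198-141460743, + strand) encodes the lipase that starts triacylglycerol breakdown. Its level was 1363, 1603 and 1543 CPM in NCD at 22 °C, 1384, 1430 and 1649 CPM in NCD at 4 °C, 1409, 1393 and 1106 CPM in HFD at 22 °C, and 913, 1134 and 773 CPM in HFD at 4 °C, for replicates 1 to 3. The NCD groups lay on top of each other, and all 3 libraries of HFD at 4 °C were below every NCD library, while the highest of them exceeded the lowest of HFD at 22 °C. Group means were 1503 ± 125, 1488 ± 142, 1303 ± 171 and 940 ± 182 CPM (SD, n = 3). In the cold, Pnpla2 was 1.58-fold lower on HFD than on NCD (log2 fold change −0.66, SE 0.16, adjusted p = 0.0386, edgeR's quasi-likelihood test). The call was kept in 4 of 12 fits that left out 1 library. These were the fits without NCD at 22 °C replicate 1, HFD at 22 °C replicate 1 or 3, or HFD at 4 °C replicate 2. The effect ran from −0.82 to −0.53 over the 12 fits. In this comparison the 12 fits called 239 to 992 of all tested genes, against 795 with all libraries. The cold effect on HFD was −0.47 on the log2 scale (SE 0.16, edgeR adjusted p = 0.0768) and was not called. On NCD the cold effect was −0.02, with a 95% interval from −0.36 to 0.33. In bulk tissue, fewer cells of a type and less RNA per cell cannot be told apart, which holds for every level given here.

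Lipe (ENSMUSG00000003123.15, GRCm38 chr7:25379527-25398710, − strand), the gene of hormone-sensitive lipase, had 1861, 1402 and 1561 CPM in NCD at 22 °C, 1769, 1509 and 1567 CPM in NCD at 4 °C, 1649, 1684 and 1330 CPM in HFD at 22 °C, and 968, 1304 and 955 CPM in HFD at 4 °C. Every library of HFD at 4 °C was below every other library, although HFD at 4 °C replicate 2 lay close to the lowest of HFD at 22 °C. The means were 1608 ± 233, 1615 ± 136, 1554 ± 195 and 1076 ± 198 CPM (SD, n = 3). Lipe was 1.44-fold lower in the cold on HFD (log2 fold change −0.53, edgeR adjusted p = 0.0574) and lower on HFD than on NCD at 4 °C by a log2 fold change of −0.59 (edgeR adjusted p = 0.0603), neither of which was called. DESeq2 called both (adjusted p = 0.0192 and 0.00778), as did edgeR with batch as a term (adjusted p = 0.0453 and 0.0466). When libraries of the same replicate number were paired within each diet by a block, the cold effect on HFD was −0.54 with an edgeR adjusted p of 0.0196 and passed, whereas a block over all groups gave an edgeR adjusted p of 0.0594. On NCD the cold effect on Lipe was 0.01, with a 95% interval from −0.35 to 0.36.

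Mgll (ENSMUSG00000033174.17, GRCm38 chr6:88724412-88828360, + strand), the gene of monoacylglycerol lipase, was called higher in the cold on NCD. It had 1147, 1072 and 1014 CPM in NCD at 22 °C and 1617, 1441 and 1563 CPM in NCD at 4 °C. On HFD it had 1228, 1219 and 957 CPM at 22 °C and 938, 1224 and 991 CPM at 4 °C. The 3 libraries of NCD at 4 °C were above all 9 others, which overlapped among themselves. The level rose 1.43-fold in the cold on NCD, from 1078 ± 66.4 to 1540 ± 90.4 CPM (SD, n = 3; log2 fold change 0.51, SE 0.14, edgeR adjusted p = 0.0444). Every library of NCD at 4 °C also had higher summed general and brown adipocyte markers than any of NCD at 22 °C. Fabp4 and Ucp1 led these sums, whose part in this rise was not tested. The log2 change of Mgll lies close to the minimum of 0.5 that a call required. Mgll was called in 3 of the 12 fits that left out 1 library, those without HFD at 22 °C replicate 1 or 3 or HFD at 4 °C replicate 2 (log2 fold change 0.48 to 0.57 over the 12 fits). For cold on NCD these 12 fits called 490 to 1112 of all tested genes, against 1049 with all libraries. On HFD the cold effect was −0.11, with a 95% interval from −0.41 to 0.19. In the cold, Mgll was 1.47-fold lower on HFD than on NCD (−0.55, SE 0.14, edgeR adjusted p = 0.0427), called in the fits without the same 3 libraries and in none of the other 9 (−0.68 to −0.45 over all 12).

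Pnpla3 (ENSMUSG00000041653.5, GRCm38 chr15:84167837-84187236, + strand), whose protein adiponutrin is a lipid droplet protein closely related to adipose triglyceride lipase and is known for its response to feeding, showed the widest range. Its level was 472, 399 and 484 CPM in NCD at 22 °C, 193, 109 and 277 CPM in NCD at 4 °C, 242, 171 and 174 CPM in HFD at 22 °C, and 22.4, 46.8 and 58.7 CPM in HFD at 4 °C. NCD at 22 °C was above all other groups and HFD at 4 °C below all of them, while NCD at 4 °C and HFD at 22 °C overlapped. Group means were 451 ± 46.0, 193 ± 84.1, 196 ± 40.0 and 42.6 ± 18.5 CPM (SD, n = 3). Pnpla3 fell in the cold on HFD, where it was 4.58-fold lower (log2 fold change −2.20, SE 0.37, edgeR adjusted p = 0.00441), and it was 4.53-fold lower on HFD than on NCD in the cold (−2.18, SE 0.37, edgeR adjusted p = 0.00914). Both calls were made in 12 of 12 fits without 1 library. On NCD the cold effect was −1.22 (SE 0.36, edgeR adjusted p = 0.0617), a 2.34-fold lower level that was not called. It was called by DESeq2 (adjusted p = 0.00406), and by edgeR without a filter on low counts (adjusted p = 0.0170) or with batch as a term (adjusted p = 0.0408). With the replicate number as a block it was −1.32, with an edgeR adjusted p of 0.0373, and passed. HFD at 22 °C was 2.31-fold lower than NCD at 22 °C (−1.21, SE 0.36, edgeR adjusted p = 0.110) and not called. The 2 groups did not overlap, as for 25.9% of all tested genes.

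Abhd5 (ENSMUSG00000032540.16, GRCm38 chr9:122351608-122381524, + strand), the coactivator of adipose triglyceride lipase, rose in the cold on both diets. It had 136, 162 and 133 CPM in NCD at 22 °C, 252, 227 and 265 CPM in NCD at 4 °C, 105, 165 and 124 CPM in HFD at 22 °C, and 203, 266 and 231 CPM in HFD at 4 °C. Every cold library was above every library at 22 °C, whatever the diet. The rise was 1.73-fold on NCD (log2 fold change 0.79, SE 0.17, edgeR adjusted p = 0.0167) and 1.78-fold on HFD (0.83, SE 0.17, edgeR adjusted p = 0.00969). The call was made in 12 of 12 fits without 1 library on HFD and in 10 of 12 on NCD, where it was lost without NCD at 22 °C replicate 1 or 3 (0.74 to 0.88 over the 12 fits). The summed brown adipocyte markers were also higher in every cold library than in any library at 22 °C. Ucp1 led this sum, whose part in this result was not tested. Diet made no detectable difference, at −0.13 (95% interval −0.49 to 0.23) at 22 °C and −0.09 (−0.45 to 0.27) at 4 °C on the log2 scale.

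G0s2 (ENSMUSG00000009633.3, GRCm38 chr1:193272161-193273217, − strand) encodes a small inhibitor of adipose triglyceride lipase. It had 215, 210 and 235 CPM in NCD at 22 °C, 175, 219 and 415 CPM in NCD at 4 °C, 278, 248 and 152 CPM in HFD at 22 °C, and 272, 270 and 311 CPM in HFD at 4 °C. NCD at 4 °C held both a low and the highest library, so its mean of 270 ± 128 CPM (SD, n = 3) overlapped every other group. The 4 effects lay between 0.04 and 0.33 on the log2 scale, and the interval of the cold effect on HFD ran from −0.30 to 0.97. G0s2 lies within Lamb3 on the opposite strand, which had 7403 counts over all 12 libraries, and antisense transcripts overlap Lipe (4732471J01Rik, 1645 counts) and Mgll (Gm26588, 804 counts). Whether counting used strand is not given in the sources used here.

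Hilpda (ENSMUSG00000043421.8, GRCm38 chr6:29272488-29275446, + strand), a hypoxia-inducible inhibitor of adipose triglyceride lipase, was the least abundant member, with 42 to 203 counts per library. It had 3.17, 3.02 and 3.65 CPM in NCD at 22 °C, 2.64, 2.47 and 3.05 CPM in NCD at 4 °C, 4.19, 2.98 and 3.56 CPM in HFD at 22 °C, and 9.14, 2.77 and 3.54 CPM in HFD at 4 °C. Replicate 1 of HFD at 4 °C was above all other libraries, and the other 2 of its group lay within the range of the rest. The difference of HFD from NCD in the cold was 0.91 on the log2 scale (edgeR adjusted p = 0.176) and 0.24 without that library.

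The comparison of cold on NCD asked which members respond to cold in lean mice. Mgll and Abhd5 were called higher, 2 of 7 members, and none lower, against 6.27% of all tested genes called (3.72% higher). Pnpla3, Mgll and Abhd5 had groups that did not overlap, as did 27.8% of all tested genes. The median log2 fold change over the members was 0.01, and over all tested genes −0.01. Without the muscle-rich library of each group no member was called by edgeR, while the effects were 0.94 for Abhd5 (adjusted p = 0.0719), 0.56 for Mgll (adjusted p = 0.139) and −1.02 for Pnpla3 (adjusted p = 0.157). With the muscle score as a term in edgeR, Abhd5 stayed called (0.78, adjusted p = 0.0219) and Mgll did not (0.45, adjusted p = 0.0588). Without NCD at 22 °C replicate 1 or 3 edgeR called 0 members. It called Abhd5 alone without NCD at 22 °C replicate 2, NCD at 4 °C replicate 1 or 2, HFD at 22 °C replicate 2 or HFD at 4 °C replicate 3.

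Cold on HFD called Abhd5 higher and Pnpla3 lower, 2 of 7 members, against 9.58% of all tested genes (5.39% higher and 4.19% lower). Pnpla3, Lipe and Abhd5 had groups that did not overlap, against 30.3% of genes, and the median log2 fold change was −0.11 for the members and −0.04 for all tested genes. Without the muscle-rich libraries, edgeR still called Pnpla3 (−2.58, adjusted p = 0.00939) and no longer Abhd5 (0.80, adjusted p = 0.0821). With the muscle score as a term, edgeR called 4 members, adding Pnpla2 (−0.57, adjusted p = 0.0371) and Lipe (−0.66, adjusted p = 0.0140). Without HFD at 4 °C replicate 2, the same 4 members were called. The median summed level of the muscle markers was 3217 CPM in NCD at 22 °C, 1272 in NCD at 4 °C, 1964 in HFD at 22 °C and 702 in HFD at 4 °C, and the part of muscle in these results was not tested beyond those fits.

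**Figure D2:**
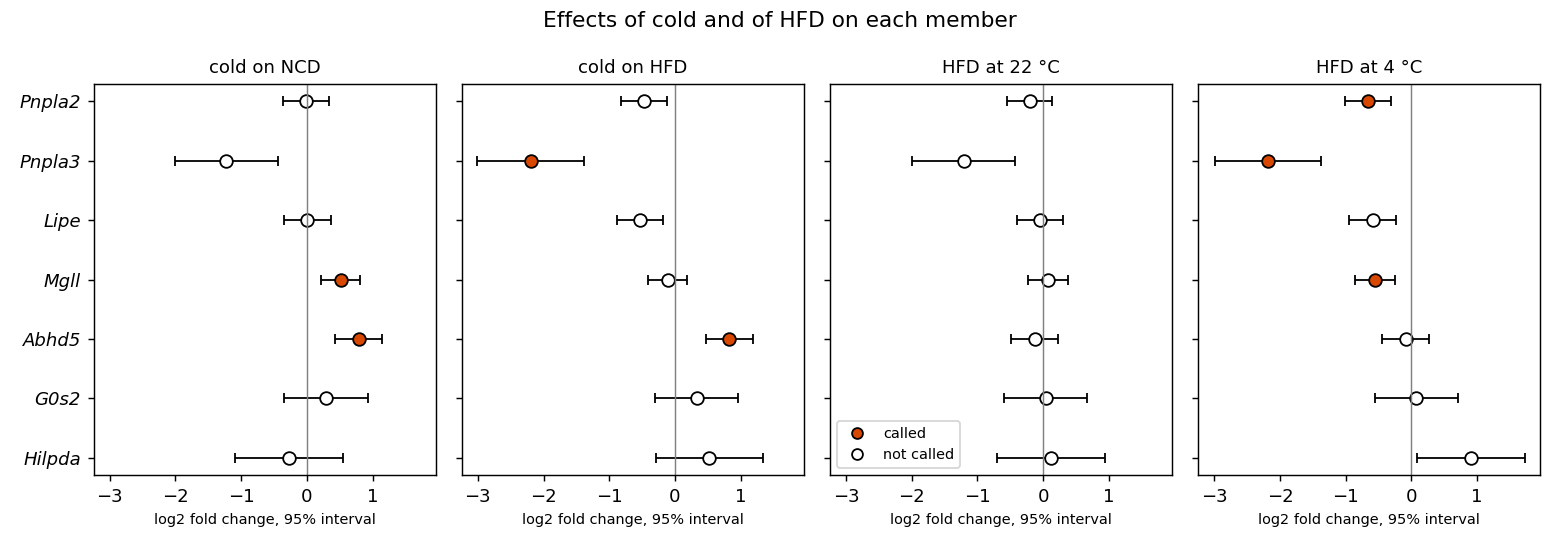
Log2 fold change of each member in the 4 comparisons, with 95% intervals from edgeR's quasi-likelihood fit of all 12 libraries; filled points were called (adjusted p under 0.05 and log2 fold change over 0.5 in size). Pnpla3 lies left of 0 in every panel, and Abhd5 lies right of 0 in both cold panels and near 0 in both HFD panels.

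HFD at 22 °C called 0 of 7 members by edgeR, against 2.09% of all tested genes. At an unadjusted p under 0.05 there was 1 member, Pnpla3, and DESeq2 also called 1 member, Pnpla3. It was also the only member whose groups did not overlap, as for 25.9% of genes. The other 6 effects lay between −0.21 and 0.12 on the log2 scale. At 4 °C, HFD called Pnpla2, Pnpla3 and Mgll lower, 3 of 7 members, and none higher, against 4.75% of all tested genes (2.69% lower). Those 3 and Lipe had groups that did not overlap, against 25.2% of genes. The median log2 fold change was −0.55 over the members and 0.02 over all tested genes. Without the muscle-rich libraries only Pnpla3 was called by edgeR (−2.77, adjusted p = 0.0111), while Pnpla2 was −0.57 and Mgll −0.56 (both with an adjusted p of 0.116). Without HFD at 4 °C replicate 2, edgeR called 4 members, adding Lipe (−0.75, adjusted p = 0.0249), and it called Pnpla3 alone in the 8 fits without any 1 of the libraries other than that, NCD at 22 °C replicate 1 and HFD at 22 °C replicates 1 and 3. Every library of HFD at 4 °C also had lower summed general and brown adipocyte markers than any of NCD at 4 °C. Fabp4 and Ucp1 led these sums, whose part in the differences was not tested.

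Whether the cold effect differed between diets was tested as the interaction of diet and temperature. No member passed, as for 0 of all tested genes in edgeR, of which 6.52% had an unadjusted p under 0.05. Mgll had the lowest adjusted p of the members, with a difference of −0.63 (HFD minus NCD) on the log2 scale (95% interval −1.05 to −0.20, edgeR adjusted p = 0.601). The difference was −0.54 for Lipe (95% interval −1.04 to −0.03, edgeR adjusted p = 0.742), −0.46 for Pnpla2 (−0.95 to 0.03) and −0.97 for Pnpla3 (−2.07 to 0.13). For Abhd5 it was 0.04, with an interval from −0.47 to 0.55. The calls of single diets above are therefore not shown to differ between diets.

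Ratios of counts within a library do not depend on the scaling between libraries. Abhd5 counts per 100 Pnpla2 counts were 9.57 ± 0.834 in NCD at 22 °C, 16.7 ± 1.29 in NCD at 4 °C, 10.2 ± 2.37 in HFD at 22 °C and 25.2 ± 4.13 in HFD at 4 °C (SD, n = 3). Abhd5 counts relative to Pnpla2 counts were thus higher in every cold library than in any library at 22 °C. Averaged over the diets, the ratio was 1.07 higher in the cold on the log2 scale, 0.81 on NCD and 1.33 on HFD (exact permutation test within diets, two-sided, p = 0.005, the smallest it allows; adjusted p = 0.025 over 10 ratio tests). Mgll counts per 100 Lipe counts were 67.7 ± 7.80, 95.5 ± 4.15, 73.0 ± 1.34 and 98.2 ± 5.09 in the same order. The ratio of Mgll to Lipe counts was 0.46 higher in the cold on the log2 scale, 0.50 on NCD and 0.43 on HFD (exact permutation test, two-sided, p = 0.005, adjusted p = 0.025). Its cold libraries were again all above those at 22 °C, on HFD too, where the level of Mgll itself differed by −0.11 and that of Lipe by −0.53 on the log2 scale, neither called. How many other pairs of genes separate in this way was not computed. Of single genes, 27.8% on NCD and 30.3% on HFD had cold and 22 °C libraries that did not overlap within the diet. With replicates paired by number, sign flips within pairs gave an adjusted p of 0.104 for both ratios (exact permutation test), where 64 arrangements allow no p below 0.0312 before adjustment.

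For the inhibitors, G0s2 counts per 100 Pnpla2 counts averaged 14.7, 17.7, 17.1 and 31.3 in NCD at 22 °C, NCD at 4 °C, HFD at 22 °C and HFD at 4 °C. The diet effect on that ratio was 0.53 on the log2 scale (exact permutation test, two-sided, p = 0.04, adjusted p = 0.1) and the cold effect 0.53 (p = 0.05, adjusted p = 0.1, same exact test), so neither passed. Hilpda to Pnpla2 had a diet effect of 0.86 (exact permutation test, two-sided, p = 0.015, adjusted p = 0.05), which did not fall under the threshold. Lipe to Pnpla2 showed no detectable change with cold (−0.01, exact permutation p = 0.88) or diet (0.12, exact permutation p = 0.3).

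**Figure D3:**
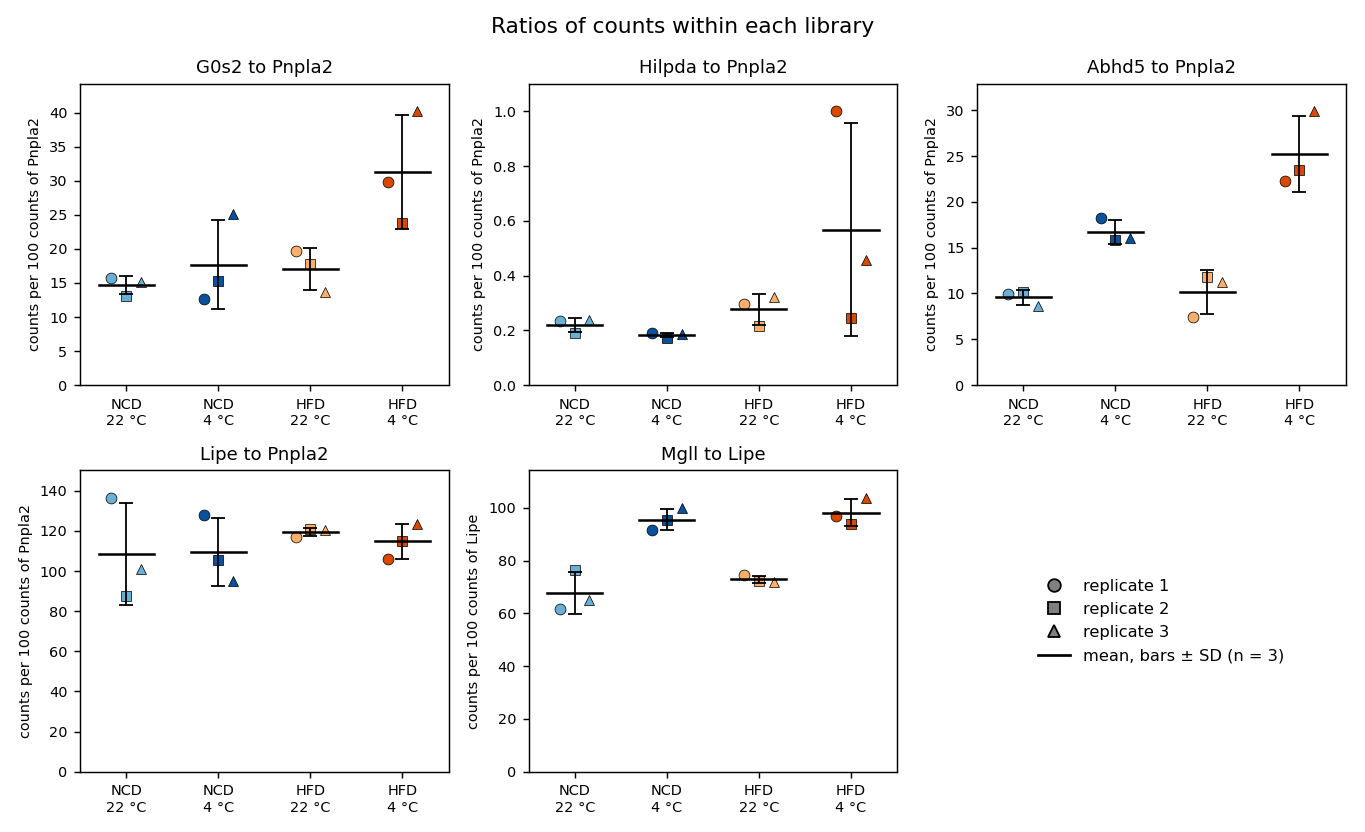
Counts of 1 member per 100 counts of another within each library, for 5 pairs, on linear axes that start at 0. Symbols are replicates, lines are means and bars ± SD (n = 3); for Abhd5 to Pnpla2 and for Mgll to Lipe, all 6 cold libraries lie above all 6 libraries at 22 °C.

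Per kilobase of annotated exons, Pnpla2 had the highest mean in 3 of the 4 groups, at 498 CPM per kb in NCD at 22 °C, 493 in NCD at 4 °C and 431 in HFD at 22 °C. In HFD at 4 °C it was second with 311 CPM per kb, after G0s2 with 326, and their ranges overlapped (256 to 375 against 310 to 357). In NCD at 22 °C, Pnpla3 (292), Lipe (273) and G0s2 (253) followed, with overlapping ranges, and then Mgll (212), whose range of 200 to 226 CPM per kb lay below those of all 4. Abhd5 was far lower at 24.1 CPM per kb, and Hilpda lowest in every group, at 2.97 in NCD at 22 °C and 4.67 in HFD at 4 °C. Pnpla3 was second in NCD at 22 °C and sixth in HFD at 4 °C, at 27.5 CPM per kb, below Abhd5 at 39.2. Lengths were the union of exons over all annotated transcripts, at 3.02 kb for Pnpla2 and 5.886 kb for Lipe. Which transcripts are present in iBAT was not determined, and the order between genes depends on these lengths. In CPM alone, Lipe had a higher mean than Pnpla2 in every group, 1608 against 1503 in NCD at 22 °C.

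**Figure D4:**
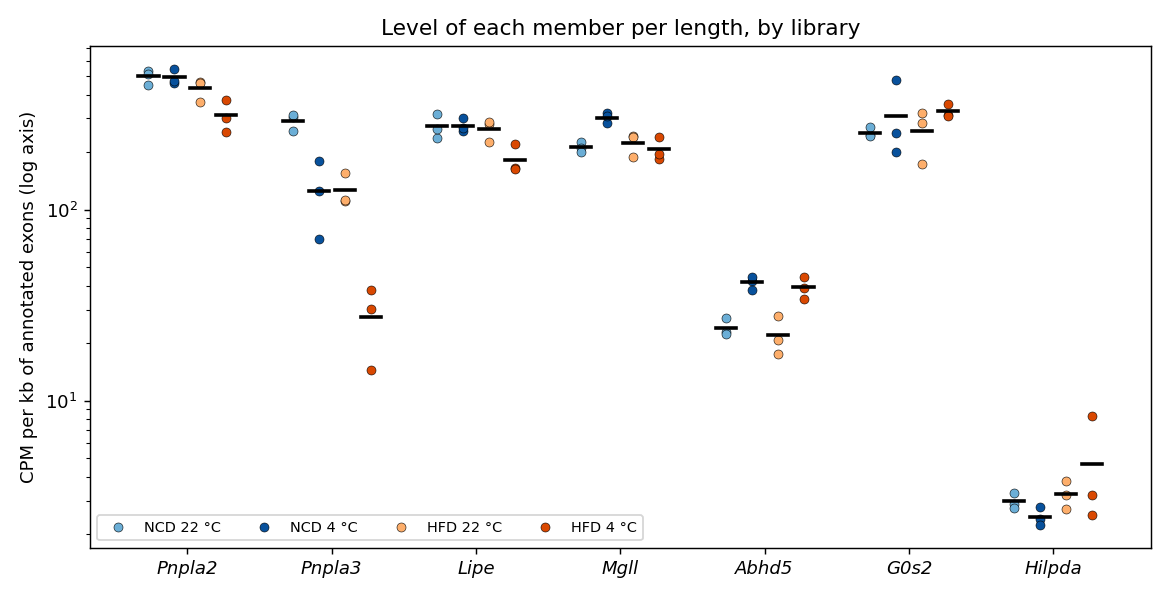
Level of each member per kilobase of annotated exons in the 12 libraries, on a log axis. Points are libraries and lines are group means; Pnpla2, Lipe, Mgll and G0s2 lie near each other, Abhd5 lies below them and Hilpda is lowest, while Pnpla3 spans from the level of Lipe to below that of Abhd5.

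Within groups, the pooled SD of log2 CPM was 0.16 for Mgll, 0.19 for Pnpla2, 0.20 for Lipe and 0.21 for Abhd5, below the median of 0.27 over all tested genes. It was 0.40 for G0s2, 0.47 for Hilpda and 0.52 for Pnpla3. The genes whose standardised log2 CPM ran closest to a member over the 12 libraries, by the root mean square difference, were Gm49340 (0.25) and Mlxipl (0.28) for Pnpla2, Slc25a1 (0.16) and Zfp523 (0.17) for Pnpla3, Cox6c and Ndufa7 (0.26 each) for Lipe, and Sfxn5 (0.32) and Mmaa (0.33) for Mgll. For Abhd5 they were Lrp3 and Ddt (0.27 each), for G0s2 Dph3 (0.46) and Fam207a (0.50), and for Hilpda Ern1 (0.31) and Trib3 (0.35). The median over all genes compared was between 1.32 and 1.38, and among the members Pnpla2 and Lipe lay nearest to each other (0.55).

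Other genes around lipolysis were read from 8 lists, which share some members. They were read only from the fit of all 12 libraries and were not refitted without the muscle-rich ones. Without those, edgeR called 281 of all tested genes in the cold on NCD, against 1049, and 731 on HFD, against 1603. Of 17 tested neutral lipid hydrolases other than the members, 5 were called higher in the cold on NCD, with none lower, and 3 higher and 1 lower on HFD. Of all tested genes, 3.72% were called higher and 2.55% lower on NCD, and 5.39% higher and 4.19% lower on HFD, which is the background for every list of the cold comparisons. The median log2 fold changes were 0.19 and 0.18, beside −0.01 and −0.04 over all tested genes. Lipg, endothelial lipase, rose 2.77-fold on NCD (edgeR adjusted p = 0.00550) and 3.82-fold on HFD (edgeR adjusted p = 0.00114), and Ces1f, a carboxylesterase, was 2.17-fold lower on HFD (edgeR adjusted p = 0.0343). The 5 endothelial markers summed to 473 to 595 CPM in NCD at 22 °C, 683 to 770 in NCD at 4 °C, 664 to 916 in HFD at 22 °C and 886 to 1023 in HFD at 4 °C, and their part in the rise of Lipg was not tested. Of 15 genes of the adrenergic and cyclic AMP arm, the same 2 rose on both diets, Adcy3 and Adcy4, with medians of 0.24 on NCD and 0.05 on HFD. Adcy3, an adenylyl cyclase, rose from 170 ± 12.0 to 1077 ± 193 CPM on NCD (6.35-fold) and from 165 ± 20.2 to 1144 ± 225 CPM on HFD (6.95-fold; SD, n = 3). Of 15 brakes on lipolysis, 5 were called higher and 1 lower on NCD, and 4 higher and 1 lower on HFD (medians 0.10 and 0.32). Ffar4, a long-chain fatty acid receptor, rose 6.84-fold on NCD and 3.59-fold on HFD, while Adora1, the inhibitory adenosine receptor, was 1.86-fold lower in the cold on NCD. Irs2, an adaptor of the insulin receptor, rose 4.26-fold on NCD and 3.60-fold on HFD. Sucnr1, the succinate receptor, was 3.06-fold lower in the cold on HFD, from 5.83 ± 3.93 CPM (SD, n = 3) at 22 °C. On NCD it was 2.85-fold lower in the cold, which was not called (edgeR adjusted p = 0.0624).

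Among 13 droplet coat proteins, Plin2 (1.94-fold), Plin5 and Cidec were called higher in the cold on NCD. Only Cavin1 was called on HFD, 1.46-fold lower (medians 0.15 and 0.06). Plin2 was also 1.71-fold higher in the cold on HFD (edgeR adjusted p = 0.0765), and Cavin1 1.37-fold lower on NCD (edgeR adjusted p = 0.0779), neither called. Of 11 carriers of fatty acids and glycerol, 8 rose in the cold on NCD, with a median log2 fold change of 0.71 beside −0.01 over all tested genes. On HFD 4 rose and 1 fell, with a median of 0.40 beside −0.04. Gk, glycerol kinase, rose 6.25-fold on NCD and 3.93-fold on HFD. Slc27a1, a fatty acid transporter, fell in the cold on HFD (1.64-fold lower). Of 14 PPAR target genes, 7 rose on NCD and 4 on HFD, among them Acot1, an acyl-CoA thioesterase, at 3.01-fold and 5.65-fold, and Ehhadh, an enzyme of peroxisomal fatty acid oxidation, at 3.34-fold and 4.96-fold, and the medians were 0.68 and 0.45.

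Of 13 reported transcriptional regulators of the members, Hif1a rose in the cold on NCD (1.46-fold) and on HFD (1.51-fold), and the medians of the list were 0.25 and 0.05. Mlxipl, the carbohydrate response element binding protein that is known to act on Pnpla3, was 1.80-fold lower in the cold on HFD (edgeR adjusted p = 0.00672) and 2.00-fold lower on HFD than on NCD at 4 °C (edgeR adjusted p = 0.00593). Its level was 268 ± 35.1 CPM in NCD at 22 °C, 237 ± 30.0 in NCD at 4 °C, 213 ± 24.7 in HFD at 22 °C and 119 ± 19.3 in HFD at 4 °C (SD, n = 3). Of 11 hypoxia target genes, 2 rose on NCD, and 2 rose and 1 fell on HFD (medians 0.53 and 0.21). Egln1, an oxygen-sensing prolyl hydroxylase, rose 2.51-fold on NCD, and Ero1l, an oxidase of the endoplasmic reticulum, rose 2.23-fold on HFD. Pdk1, a pyruvate dehydrogenase kinase, was 2.67-fold lower in the cold on HFD and 3.40-fold lower on HFD than on NCD at 4 °C. Across these lists, HFD at 22 °C called 0 of 17 hydrolases, 0 of 13 droplet coat proteins and 0 of 13 regulators, and 5 of 11 carriers, against 2.09% of all tested genes, 2 of those carriers higher and 3 lower. It also called 1 adrenergic gene, 1 brake, 1 PPAR target and 3 hypoxia targets, all higher.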

How the data were processed

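Total RNA libraries (Illumina TruSeq) were made from iBAT of the 12 mice. Reads were trimmed by the authors with cutadapt and assigned to transcripts with salmon against GENCODE combined with RNAcentral on GRCm38 before transcripts were summed to genes. The table the authors deposited holds each gene's estimated counts as whole numbers, not normalized, 1 column per library. Whether counting used strand and the versions of the authors' tools are not given in the sources used here. Groups and batches came from the labels. Exon lengths and coordinates came from a GENCODE annotation of GRCm38, in which the versioned identifiers of all 7 members matched, and promoters from RefSeq on GRCm38.p6 (7 members, 10 windows).

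In edgeR 4.0.16 under R 4.3.3, filterByExpr with a minimum count of 10 left 16737 genes, which were scaled by TMM. All 12 libraries entered a single quasi-likelihood fit with 1 mean per group, and p-values were adjusted by Benjamini-Hochberg over all tested genes. The 4-group test used an adjusted p under 0.001 and the interaction an adjusted p under 0.05. Log2 CPM used a prior count of 2. Ratios were tested by exact permutation of 400 arrangements within strata, where the smallest p is 0.005. The code was tested on simulated data.

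The members, gene lists and tests were chosen with earlier results of these data known. Pathway genes were named by rule, as the called gene of each list with the largest rise and the largest fall in the cold on each diet, and other list members only to complete a count. Genes near a member in pattern were the 2 with the smallest root mean square difference in standardised log2 CPM, among protein-coding genes with a mean count of at least 10.

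Deviations from the group means of same-numbered libraries correlated at 0.219 to 0.456 in the cold comparison on NCD and 0.155 to 0.386 on HFD. Libraries of different numbers correlated there at −0.289 to 0.0439 and −0.268 to 0.134. The replicate number was therefore used to pair libraries in alternatives to the cold tests, from the data and not from a label. The main fit and the permutations within diets did not pair libraries, so their p-values ignore any pairing. The highest values, 0.456 and 0.386, were those of the muscle-rich libraries, replicate 2 on NCD and replicate 3 on HFD. Replicate 3 was also the only library of batch 2 in each group. Within batch 1 on HFD, same numbers correlated at 0.155 and 0.217 and different numbers at 0.134 and 0.106. On NCD the values were 0.219 and 0.456 against −0.223 and −0.228. Deviations within a group depend on each other, so these correlations do too, and they do not establish a pairing. The parts of muscle and batch in these correlations were not tested. In the comparisons of diets same-numbered libraries correlated at −0.180 to 0.365 at 22 °C and −0.211 to 0.196 at 4 °C. There too, the replicate number entered alternatives only. Alternatives were DESeq2 1.42.0, its size factors, other filters, batch as a term, batch 1 alone, the 6 libraries of each comparison, the replicate block and leaving out each library. Both alternatives on muscle transcripts were chosen after seeing the data. A count of 0 would allow up to 3 counts.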

Additional observations from a re-analysis of the deposited data

How the results depend on the processing

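Among the alternatives run, each Pnpla3 effect and each cold effect on Abhd5 kept its direction. The cause of a moved value was not tested, except that fewer libraries or genes entered some fits. In the test of 4 groups 1 member was called, against 4 with DESeq2, 2 without a filter on low counts, 0 with the replicate block over all groups, 0 in the batch of replicates 1 and 2, 0 with the muscle score as a term, 0 without the muscle-rich libraries and 0 to 1 when each library was left out. For HFD at 22 °C, 0 members were called, against 1 each with DESeq2, without a filter and with only the 6 libraries compared. For HFD at 4 °C, 3 members were called, against 4 each with DESeq2, with batch as a term and with the muscle score (adding Lipe), 2 without a filter (without Mgll), 0 in the batch of replicates 1 and 2, 0 with only 6 libraries, 1 without the muscle-rich libraries and 1 to 4 leaving out a library. For cold on HFD, 2 were called, against 3 each with DESeq2 and with batch as a term (adding Lipe), 1 in that batch, 1 with only 6 libraries, 4 with the muscle score, 1 without the muscle-rich libraries and 2 to 4 leaving out a library. For cold on NCD, 2 were called, against 3 each with DESeq2 and with batch as a term (adding Pnpla3), 1 with DESeq2's size factors, 0 in that batch, 1 with the muscle score, 0 without the muscle-rich libraries and 0 to 2 leaving out a library. In the batch of replicates 1 and 2 alone, edgeR called Pnpla3 in the cold on HFD (−2.58, adjusted p = 0.0316) and no other member. Replicate 3 is the only library of its group in the other batch, so that batch gives no test. Pairing by replicate number changed no call within a diet other than those of Pnpla3 on NCD (−1.32) and Lipe on HFD (−0.54).

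DESeq2 was run on 37458 genes and edgeR, after its filter, on 16737. From these, DESeq2 called 826 for HFD at 22 °C where edgeR called 349, and 1312 against 795 for HFD at 4 °C. DESeq2 called 2512 against 427 for the 4 groups and 61 against 0 for the interaction. The test of 4 groups passed 0 of 16587 genes in the batch of replicates 1 and 2 and 11 of 16659 without the muscle-rich libraries. It passed 270 with the replicate block over all groups and 404 with the muscle score. HFD at 4 °C called 53 in that batch, 149 with only 6 libraries and 384 without the muscle-rich libraries. In that batch cold called 352 on NCD and 416 on HFD, against 1049 and 1603 in the fit above. Without the muscle-rich libraries it called 281 and 731. The cold effect on Abhd5 to Pnpla2 was 1.02 in the batch of replicates 1 and 2, 1.07 with the replicate block by sign flips and 1.08 without the muscle-rich libraries, and that on Mgll to Lipe was 0.41, 0.46 and 0.49 (none called, in designs with fewer arrangements). Leaving out each library, the cold effect on G0s2 to Pnpla2 ran from 0.39 to 0.64, that on Lipe to Pnpla2 from −0.085 to 0.075, and the diet effects on Abhd5 to Pnpla2 from 0.26 to 0.43 and on Hilpda to Pnpla2 from 0.60 to 1.11. The first was called without NCD at 4 °C replicate 1, and the diet effects were called without HFD at 22 °C replicate 1 and replicate 2, respectively.

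None of the effects that turned direction was called in the fit reported above. Without the muscle-rich libraries Abhd5 was 0.0052 for HFD at 22 °C and −0.15 for the interaction, G0s2 −0.12 for HFD at 4 °C and −0.35 for the interaction, and, for cold on NCD, Lipe −0.037 and Pnpla2 0.061. With the muscle score G0s2 was −0.030 for HFD at 22 °C and Lipe −0.083 for cold on NCD. In the batch of replicates 1 and 2, G0s2 was −0.11 for cold on NCD and Lipe 0.030 for HFD at 22 °C. Cold on NCD gave −0.0033 for Lipe with DESeq2 and −0.012 with its size factors, and 1.5e-05 for Pnpla2 without a filter. Leaving out each library, Abhd5 ran from −0.19 to 0.030 for HFD at 4 °C and −0.064 to 0.24 for the interaction. G0s2 ran from −0.17 to 0.26 for HFD at 22 °C, −0.16 to 0.52 for HFD at 4 °C, −0.15 to 0.53 for cold on NCD and −0.18 to 0.51 for the interaction. Hilpda ran from −0.039 to 0.23 for HFD at 22 °C and −0.14 to 0.82 for cold on HFD, Lipe from −0.14 to 0.052 for HFD at 22 °C and −0.083 to 0.13 for cold on NCD, Mgll from −0.020 to 0.18 for HFD at 22 °C, and Pnpla2 from −0.086 to 0.044 for cold on NCD.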
